A study of Mus musculus with 6 samples.

Results

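The genes examined were the nuclear-encoded subunits of the mitochondrial respiratory chain and ATP synthase in mouse liver. They were chosen by symbol: probes annotated to a single gene whose symbol begins with Ndufa, Ndufb, Ndufc, Ndufs, Ndufv, Uqcr, Cox4 to Cox8 or Atp5, or is Sdha, Sdhb, Sdhc or Sdhd. The rule took 88 probes of 86 genes, all of which were measured, out of 16887 named genes on the arrays. They comprised 36 genes of complex I, 4 complex I assembly factors that share the Ndufa prefix (Ndufaf1, Ndufaf3, Ndufaf4 and Ndufaf5), 4 of complex II, 8 of complex III, 17 of complex IV and 17 of complex V. Of the 13 subunits encoded by the mitochondrial genome, 0 were found among the named probes.

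The study examined how lovastatin and fenofibrate act in a short-term, diet-induced model of hyperlipidemia. The livers came from C57BL/6 mice aged 7 weeks, and all 6 animals with an array were kept on the HFC diet, named a high-fat diet in the sample titles, for 12 days. The HFC fenofibrate group (n = 2) received fenofibrate at 100 mg/kg orally once daily from day 5, the HFC lovastatin group (n = 2) received lovastatin at 30 mg/kg on the same schedule, and the HFC group (n = 2) received vehicle. For both lovastatin mice the protocol field describes fenofibrate dosing, and they were taken as lovastatin mice from the title and source name. Each array held the RNA of 1 mouse against the same pool of RNA from 6 C57BL/6 mice fed standard chow for 12 days. The design text gives the chow mice vehicle, and the sample labels call them non-treated. Each value is the log2 ratio of that mouse to the chow pool, so that 0 is the level of the pool and 1 a ratio of 2.

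Complexes I to IV pass electrons from NADH and succinate to oxygen and, except for complex II, pump protons across the inner mitochondrial membrane. Complex V, the ATP synthase, uses the proton gradient to make ATP. In the liver this chain reoxidises the cofactors reduced during fatty acid oxidation, whose genes are induced by PPARα, the nuclear receptor that fenofibrate activates. Lovastatin inhibits HMG-CoA reductase in the synthesis of cholesterol, a pathway that also supplies the side chain of ubiquinone, the electron carrier between complexes I or II and complex III.

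The mouse RNA carried Cy3 on the fenofibrate arrays and Cy5 on the lovastatin and HFC arrays, so fenofibrate and dye orientation cannot be told apart in any difference between fenofibrate and the other groups. The log base and the direction of the ratio are not stated. Base 2 and mouse over pool were taken as likely, and Acot1, a PPARα target, read 3.76 and 4.05 on the fenofibrate arrays, 1.89 and 1.63 on the lovastatin arrays and 2.48 and 1.48 on the HFC arrays. Over all features HFC array 1 correlated with fenofibrate array 1 at r = 0.319 (across 19391 genes and unnamed probes, which are not independent replicates and share the pool), although the dyes were opposite. Over the 86 members alone, HFC array 1 correlated at r = 0.03 with fenofibrate array 1 and 0.104 with fenofibrate array 2. The direction of the ratio was not tested. Were the fenofibrate ratios to run the other way, their values below would change sign. The SD over all probes was 0.42 to 1.09 per array, and lovastatin array 1 was the widest.

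On HFC array 2, spots in 4 blocks of positions hold values that belong to other spots of the same block, and 38 member probes lie there. These values were left out, which leaves 50 members with both HFC arrays and 36 with HFC array 1 alone. Within those blocks, HFC array 2 correlated with the mean of the other arrays, lovastatin array 1 left out, at -0.0413 to 0.0172, and at 0.299 to 0.336 once each block was rotated into place. The rotated values are given below as put back.

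The promoters of 5 members are shown because Ndufab1 was the single member past the test threshold, and because Sdhd, Atp5c1, Atp5g2 and Ndufb4 are those members above the pool on both fenofibrate arrays and below it on every other array whose promoters hold the motif of NRF1, a transcription factor known to bind promoters of respiratory chain genes. They are the 250 bases before the annotated start, read 5′ to 3′ on the gene's strand, from RefSeq on GRCm38.p6, and all 5 genes are on the minus strand. The intervals are chr7:122101849-122102098 for Ndufab1, chr9:50603850-50604099 for Sdhd, chr2:10080433-10080682 for Atp5c1, chr15:102671048-102671297 for Atp5g2 and chr16:37654369-37654618 for Ndufb4. Capitals mark matches to the NRF1 motif.
Ndufab1: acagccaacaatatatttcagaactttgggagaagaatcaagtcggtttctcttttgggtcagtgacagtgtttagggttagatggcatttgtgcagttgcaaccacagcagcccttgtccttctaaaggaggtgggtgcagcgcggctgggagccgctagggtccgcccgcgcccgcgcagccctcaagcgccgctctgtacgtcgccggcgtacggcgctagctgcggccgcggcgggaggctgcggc
Sdhd: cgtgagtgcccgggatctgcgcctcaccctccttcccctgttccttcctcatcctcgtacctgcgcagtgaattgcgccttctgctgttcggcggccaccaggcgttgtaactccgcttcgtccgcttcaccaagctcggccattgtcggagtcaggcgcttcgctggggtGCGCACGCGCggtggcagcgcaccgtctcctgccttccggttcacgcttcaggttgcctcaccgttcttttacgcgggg
Atp5c1: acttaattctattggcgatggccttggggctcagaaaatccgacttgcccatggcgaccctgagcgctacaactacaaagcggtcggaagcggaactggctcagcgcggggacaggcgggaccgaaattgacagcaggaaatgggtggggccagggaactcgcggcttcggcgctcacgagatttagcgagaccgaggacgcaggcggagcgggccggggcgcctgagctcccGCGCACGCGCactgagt
Atp5g2: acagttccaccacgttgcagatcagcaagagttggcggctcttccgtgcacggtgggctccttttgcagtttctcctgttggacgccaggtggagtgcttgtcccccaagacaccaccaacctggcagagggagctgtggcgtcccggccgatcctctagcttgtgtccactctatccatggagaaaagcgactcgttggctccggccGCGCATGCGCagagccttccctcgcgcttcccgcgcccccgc
Ndufb4: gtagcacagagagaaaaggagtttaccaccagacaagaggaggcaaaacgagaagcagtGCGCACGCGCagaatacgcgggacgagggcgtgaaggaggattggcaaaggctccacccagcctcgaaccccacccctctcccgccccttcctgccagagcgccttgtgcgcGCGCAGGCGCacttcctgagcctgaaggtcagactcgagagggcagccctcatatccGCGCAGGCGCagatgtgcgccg

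The NRF1 motif, searched on both strands like the others, began 79 bases before the start of Sdhd, 17 before that of Atp5c1 (1 of 2 starts in the table) and 42 before that of Atp5g2. In Ndufb4 it began 191, 79 and 22 bases before the start, and in the Ndufab1 window these letters were not found. Of the 72 members with a promoter in the table, 14 (19.4%) held the motif, against 7.07% of the 13191 protein-coding genes named on the array that have one. The other 14 members have no promoter in the table. The ERR motif TCAAGGTCA was in 1 member promoter (1.39%, against 0.303%), the ETS motif CCGGAAGT in 3 (4.17%, against 4.92%), the YY1 motif AAGATGGCG in 1 (1.39%, against 1.02%) and the PPAR direct repeat in 0 (against 0.0606%). The 14 members with the NRF1 motif had a median of 0.182 for fenofibrate against the pool and the 58 without it a median of 0.112. For fenofibrate against lovastatin the medians were 0.228 with the motif and 0.23 without it, and with both dye orientations weighted equally they were 0.095 and 0.0794. A match is a run of letters in the window and not a measured binding site.

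By their median over all complexes, respiratory chain genes read higher on the fenofibrate arrays than on the others. The median log2 ratio of the 86 genes was 0.195 and 0.115 on the fenofibrate arrays, -0.07 and -0.05 on the lovastatin arrays, and 0.04 and 0.07 on the HFC arrays, where the last covers 50 genes and is 0.01 for all 86 with the blocks put back. On the fenofibrate arrays 66 and 61 of 86 genes lay above the pool, on the lovastatin arrays 30 and 33, and on HFC array 1 48. The whole-array medians were between -0.01 and 0.03. In bulk liver, fewer cells of a type and less RNA per cell cannot be told apart. Complex IV had medians of 0.22 and 0.2 on the fenofibrate arrays, -0.15 and -0.12 on the lovastatin arrays and -0.05 on HFC array 1, and complex III had 0.255 and 0.275, -0.06 and 0.005, and 0.14 in the same order of groups. Complex I had 0.155 and 0.1 with fenofibrate, -0.08 and -0.05 with lovastatin and 0.05 on HFC array 1, and complex V had 0.22 and 0.07, -0.02 and 0, and 0.13. The 4 genes of complex II had 0.23 and -0.11 with fenofibrate, -0.34 and -0.295 with lovastatin and -0.345 on HFC array 1. Over the genes in place on HFC array 2 the medians there were 0.1 for 22 genes of complex I, -0.04 for 3 of complex III, 0.03 for 10 of complex IV and 0.135 for 12 of complex V, and the single gene of complex II read -0.31. By these medians complexes II, III and IV were higher on both fenofibrate arrays than on any other. Complexes I and V on fenofibrate array 2 were at or below HFC array 2, which covers fewer genes. With the blocks put back, HFC array 2 had 0.0525 for complex I and -0.01 for complex V, both below fenofibrate array 2. Complex V on fenofibrate array 2 was still below HFC array 1. Gene by gene, fenofibrate minus HFC had a median of -0.08 in complex V, with 7 of 17 genes above 0 and 10 below. In complexes I to IV that median was 0.1025, 0.3325, 0.1925 and 0.2.

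**Figure D1:**
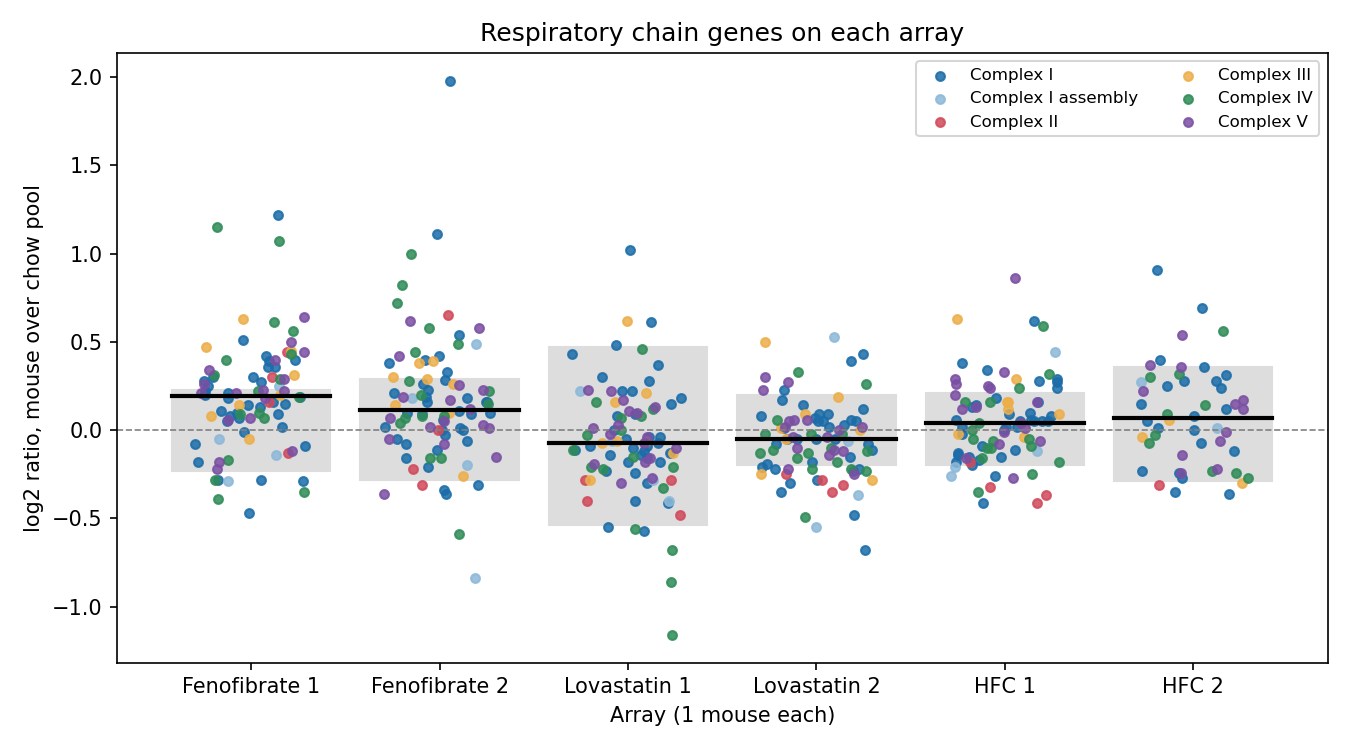
Each point is the log2 ratio of 1 respiratory chain gene to the chow pool on 1 array (1 mouse), coloured by complex. Black lines are the medians of the genes, at 0.195 and 0.115 for fenofibrate, -0.07 and -0.05 for lovastatin and 0.04 and 0.07 for HFC, and grey boxes span the interquartile range of all features on that array. HFC 2 shows the 50 genes with a value in place.

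Both fenofibrate arrays lay above all lovastatin and HFC arrays for 37 of 86 members (43%), against 11.8% of all features. They lay below all others for 5 members (5.81%), against 13% of all features. With the blocks put back the count above was 35 (40.7%, against 9.88%). Among the 50 members with both HFC arrays it was 19 (38%, against 10.8%), and among the 36 with HFC array 1 alone it was 18 (50%, against 12.9%). Taking 1 group at a time, both fenofibrate arrays lay above the HFC arrays for 40 members (46.5%, against 25.4% of features) and below them for 14 (16.3%, against 27.2%). They lay above both lovastatin arrays for 47 (54.7%, against 20.1%) and below both for 6 (6.98%, against 20.2%). By complex the count above all other arrays was 14 of 36 for complex I and 0 of 4 for the complex I assembly factors. It was 3 of 4 for complex II (2 with the blocks put back) and 4 of 8 for complex III. For complex IV it was 10 of 17 (9 with the blocks put back) and for complex V 6 of 17. Without HFC replicate 1, which leaves only the genes in place on HFC array 2, the count over all complexes was 21 of 50 (42%, against 13.6% of features).

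**Figure D2:**
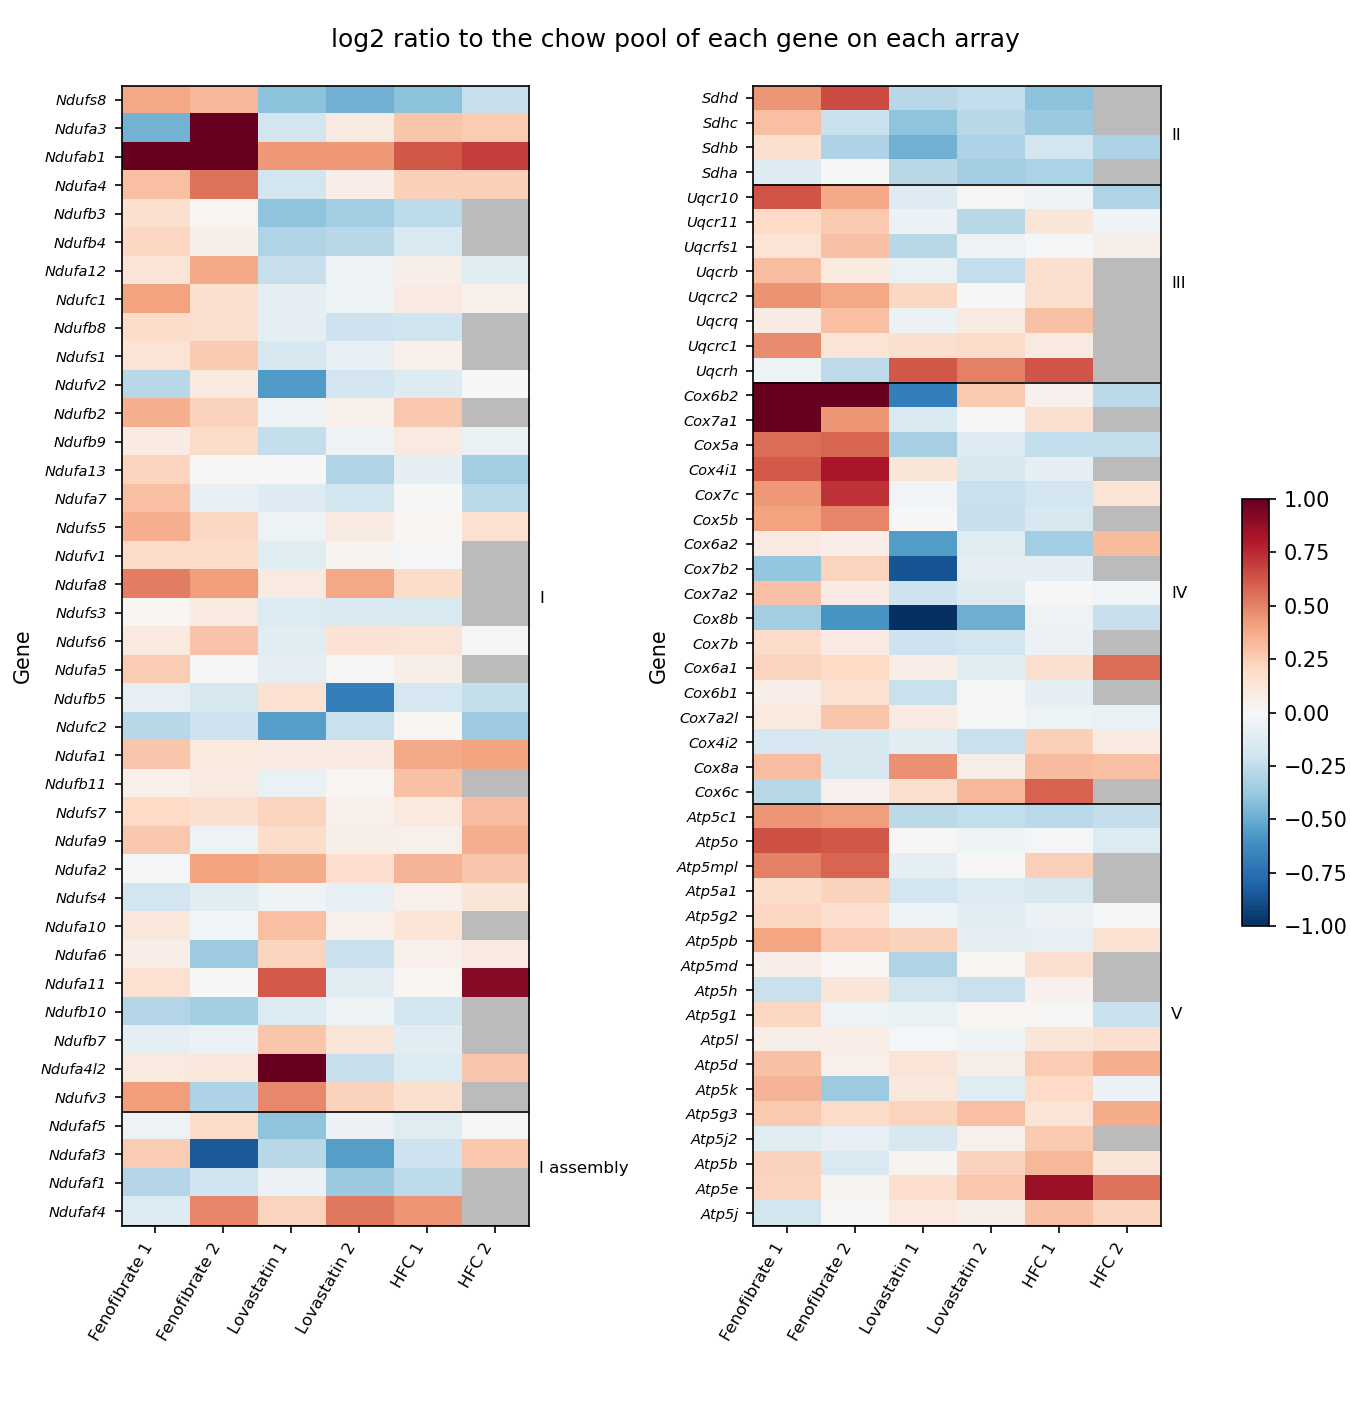
Each row is 1 gene and each column 1 array, and colour gives the log2 ratio to the chow pool from -1 (blue) to 1 (red), with values beyond the scale drawn at its ends. Genes are grouped by complex and ordered within it by the fenofibrate mean minus the lovastatin mean, and grey marks displaced spots of HFC array 2. The order places genes with fenofibrate above lovastatin in the upper rows of each group, so that contrast follows from the ordering.

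For 12 members (14%, against 3.24% of all features) both fenofibrate arrays lay above the pool and every other array below it. These were Atp5a1, Atp5c1, Atp5g2, Cox5a, Cox6b1, Cox7b, Ndufb3, Ndufb4, Ndufb8, Ndufs3, Ndufs8 and Sdhd, of which 10 keep the pattern with the blocks put back. The opposite arrangement was found for 1 member, Uqcrh (1.16%, against 3.35%).

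In single-gene tests 0 members passed the adjusted threshold for fenofibrate against HFC, against lovastatin or against the pool. In limma's moderated test, with p-values adjusted by Benjamini-Hochberg over all features, 1 of 86 members passed an adjusted p of 0.05 in the dye-balanced comparison, against 0.566% of all 19447 features. This comparison is the mean of the groups against the pool with the fenofibrate arrays weighted 0.5 and the others 0.25 each, so that both dye orientations count equally. Members called higher were 1 (1.16%, against 0.17% of features) and members called lower 0 (against 0.396%). In the other 6 comparisons 0 members passed, where 0.0616% of features passed for fenofibrate against the pool (0.0103% higher and 0.0514% lower) and 0% for lovastatin against the pool, HFC against the pool, lovastatin against HFC, fenofibrate against HFC and fenofibrate against lovastatin. At an unadjusted p under 0.05, the dye-balanced comparison had 4 members higher (4.65%, against 5.19% of features), Atp5e, Atp5o, Cox6b2 and Ndufab1, and 1 lower, Cox8b (1.16%, against 5.64%). At that threshold members higher with fenofibrate than in the pool numbered 11 (12.8%, against 3.85% of features) and members lower numbered 0 (against 3.78%). The same threshold took 7 members as higher with fenofibrate than in HFC (8.14%, against 1.5%) and 8 as higher than with lovastatin (9.3%, against 3.56%), with 0 lower in either (against 1.39% and 1.99%). Estimates were above 0 for 60 members in the dye-balanced comparison (69.8%, against 51.1%), 66 for fenofibrate against the pool (76.7%, against 49.3%), 54 against HFC (62.8%, against 47.9%) and 65 against lovastatin (75.6%, against 49.7%). These comparisons share the fenofibrate arrays and the chow pool. The median 95% interval of a member reached 0.834 to either side for fenofibrate against HFC and 0.322 for the dye-balanced comparison. Differences the size of most of those below were thus not detectable for single genes with 2 arrays a group. Over all features the intervals were wider, at 1.02 and 0.412. How far this enters the shares of members and features was not tested.

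Complex I oxidises NADH. Ndufab1, its acyl carrier protein subunit, which also serves mitochondrial fatty acid synthesis, had log2 ratios of 1.22 and 1.11 with fenofibrate, 0.43 and 0.43 with lovastatin, and 0.62 and 0.69 on the HFC diet alone. It was above the pool on all 6 arrays, both fenofibrate arrays were above the rest, and both lovastatin arrays were below both HFC arrays. Its dye-balanced estimate was 0.85 ± 0.101 (SE, adjusted p = 0.0465), and it was the single member that rose. The call is lost without either fenofibrate replicate (adjusted p = 0.563 and 0.689) and without HFC replicate 1 (0.185) or 2 (0.166). For fenofibrate against the pool the estimate was 1.165 ± 0.164 (adjusted p = 0.147).

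Ndufs8, a core iron-sulphur subunit of complex I, read 0.39 and 0.33 with fenofibrate, -0.41 and -0.48 with lovastatin, and -0.41 and -0.23 in HFC. Its groups did not overlap between fenofibrate and the rest, and the difference of fenofibrate from HFC was 0.68 ± 0.237 (SE, 95% interval 0.0834 to 1.28, adjusted p = 1). Of the 6 measured core subunits encoded in the nucleus, Ndufs8 and 3 others had both fenofibrate arrays above the rest, against 11.8% of all features. Ndufs1, an iron-sulphur subunit, read 0.14 and 0.26 with fenofibrate, -0.16 and -0.08 with lovastatin and 0.05 on HFC array 1. Ndufv1, the subunit that binds NADH, read 0.19 and 0.18 with fenofibrate, -0.12 and 0.03 with lovastatin and -0.02 on HFC array 1. Ndufs3 read 0.02 and 0.09 with fenofibrate, -0.14 and -0.15 with lovastatin and -0.15 on HFC array 1. The remaining core subunits overlapped. Ndufv2 read -0.28 and 0.10 with fenofibrate, -0.57 and -0.19 with lovastatin and -0.13 and 0 in HFC, and Ndufs7 read 0.20 and 0.16 with fenofibrate, 0.22 and 0.05 with lovastatin and 0.10 and 0.31 in HFC.

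Other subunits of complex I went differently. Ndufs4, an accessory subunit, read -0.18 and -0.11 with fenofibrate, -0.04 and -0.08 with lovastatin and 0.05 and 0.12 in HFC, so its fenofibrate arrays were the lowest. Ndufb10, an accessory subunit, read -0.29 and -0.34 with fenofibrate, -0.14 and -0.05 with lovastatin and -0.18 on HFC array 1. It was 1 of 3 members below the pool on every array (3.49%, against 7.11% of features), with Cox8b and Ndufaf1. Ndufa3 read -0.47 and 1.98 on the fenofibrate arrays, -0.18 and 0.09 on the lovastatin arrays and 0.28 and 0.25 on the HFC arrays. Its fenofibrate replicates differed by 2.45, the widest gap among the members. Ndufc2 had the lowest dye-balanced estimate of complex I, -0.26 ± 0.12 (SE, adjusted p = 0.517), with -0.28 and -0.21 in fenofibrate mice, -0.55 and -0.22 in lovastatin mice and 0.02 and -0.36 in HFC mice.

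Ndufa4, first described with complex I and since assigned to complex IV, read 0.30 and 0.54 with fenofibrate, -0.18 and 0.07 with lovastatin and 0.24 and 0.24 in HFC. By its symbol Ndufa4 was kept in complex I in every count and median by complex. Its paralog Ndufa4l2, known for its induction by hypoxia, read 0.09 and 0.11 with fenofibrate, 1.02 and -0.23 with lovastatin and -0.14 and 0.28 in HFC. Its lovastatin replicates differed by 1.25, the widest gap within that group. The 4 assembly factors, which help build complex I and are not part of the finished enzyme, showed no common order. Ndufaf3 read 0.25 and -0.84 with fenofibrate, -0.28 and -0.55 with lovastatin and -0.21 and 0.27 in HFC.

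Complex II, succinate dehydrogenase, also belongs to the tricarboxylic acid cycle, and all 4 of its subunits were measured. Its genes were below the pool on every lovastatin array and every HFC value in place. Sdhd, a membrane anchor, read 0.44 and 0.65 with fenofibrate, -0.28 and -0.25 with lovastatin and -0.41 on HFC array 1 (-0.27 put back on HFC array 2). Both fenofibrate values were above the pool and all others below it, and the difference of fenofibrate from HFC was 0.955 ± 0.323 (SE, 95% interval 0.0885 to 1.82, adjusted p = 1), or 0.885 with the blocks put back.

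Sdhc, the other membrane anchor, read 0.30 and -0.22 with fenofibrate, -0.40 and -0.28 with lovastatin and -0.37 on HFC array 1 (0.05 put back on HFC array 2, within the fenofibrate values). Sdhb, the iron-sulphur subunit, read 0.16 and -0.31 with fenofibrate, -0.48 and -0.31 with lovastatin and -0.18 and -0.31 in HFC. Sdha, the flavoprotein that oxidises succinate, read -0.13 and 0 with fenofibrate, -0.28 and -0.35 with lovastatin and -0.32 on HFC array 1. Fenofibrate minus HFC was above 0 for all 4 genes, with 0.17 for Sdhb, 0.255 for Sdha, 0.41 for Sdhc and 0.955 for Sdhd. The Sdhb and Sdhc replicates under fenofibrate differed by more than their groups did.

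**Figure D3:**
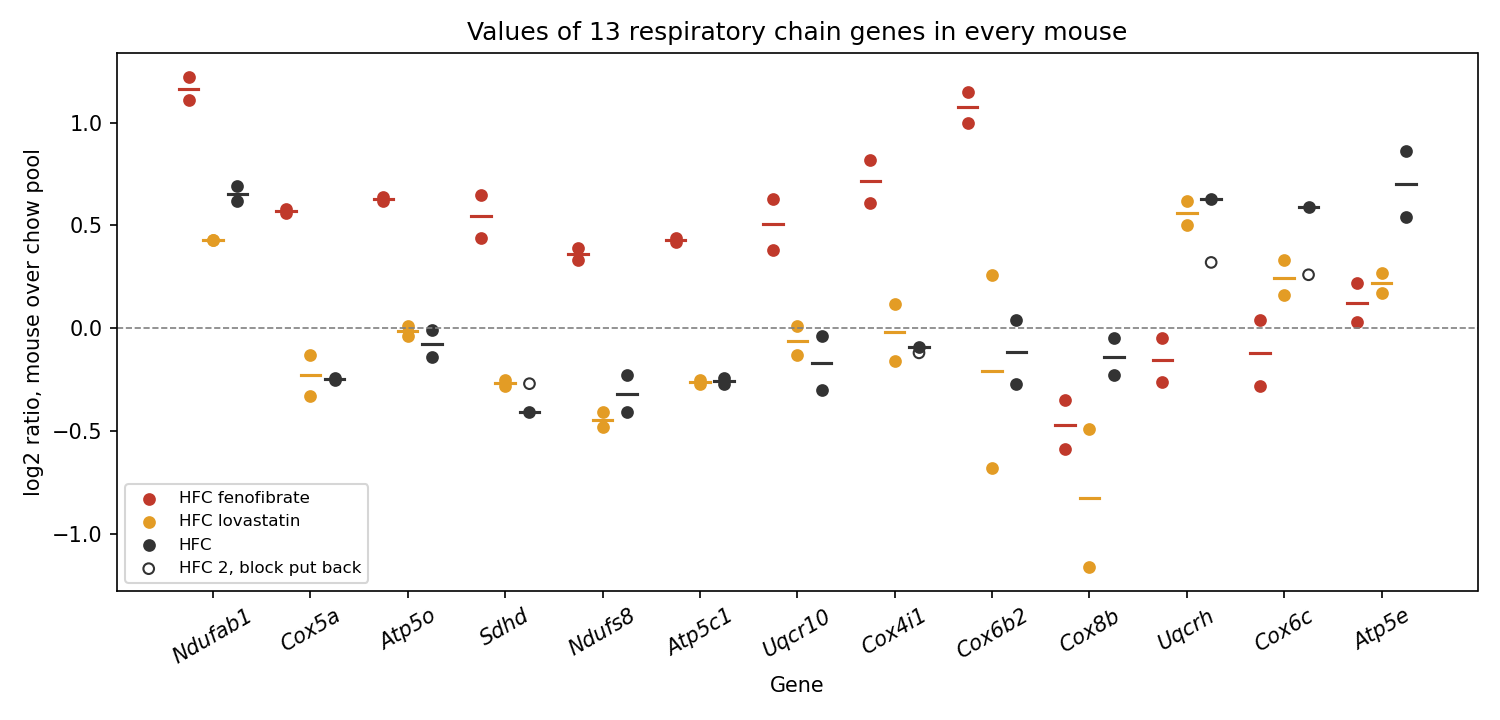
The log2 ratio to the chow pool is shown for 13 respiratory chain genes, with 1 point per mouse, a bar at the mean of each group, and fenofibrate, lovastatin and HFC side by side for each gene. Open circles are HFC 2 values put back from a displaced block and are not in the mean. The fenofibrate points lie above the others from Ndufab1 to Cox6b2 and below them for Uqcrh and Cox6c. Several of these genes were chosen for groups that do not overlap or after their values were seen, so that pattern follows in part from the choice.

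Complex III passes electrons from ubiquinol to cytochrome c. Uqcr10, a small subunit, read 0.63 and 0.38 with fenofibrate, -0.13 and 0.01 with lovastatin and -0.04 and -0.30 in HFC. The groups did not overlap, and fenofibrate exceeded HFC by 0.675 ± 0.257 (SE, adjusted p = 1). Uqcrc2, a core subunit, had the highest dye-balanced estimate of the complex, 0.276 ± 0.124 (SE, adjusted p = 0.532), with 0.45 and 0.39 in fenofibrate mice, 0.21 and 0.00 in lovastatin mice and 0.16 on HFC array 1. Uqcrfs1, the Rieske iron-sulphur protein, read 0.14 and 0.29 with fenofibrate, -0.28 and -0.05 with lovastatin and -0.02 and 0.06 in HFC. Uqcr11 read 0.20 and 0.26 with fenofibrate, -0.06 and -0.28 with lovastatin and 0.12 and -0.04 in HFC.

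Uqcrh, the hinge protein that contacts cytochrome c1, ran the other way. It read -0.05 and -0.26 with fenofibrate, 0.62 and 0.50 with lovastatin and 0.63 on HFC array 1 (0.32 put back on HFC array 2). Fenofibrate minus HFC was -0.785 ± 0.326 (SE, adjusted p = 1), the lowest value of any member in that comparison. With the blocks put back it was -0.63, and Cox7b2 at -0.76 was lower.

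Complex IV, cytochrome c oxidase, reduces oxygen to water. For 10 of its 17 genes (58.8%, against 11.8% of all features) both fenofibrate arrays lay above all others. With the blocks put back the count was 9 (52.9%, against 9.88%). Cox5a, a subunit found in all tissues, read 0.56 and 0.58 with fenofibrate, -0.33 and -0.13 with lovastatin and -0.25 and -0.24 in HFC. The fenofibrate replicates differed by less than 0.05, and fenofibrate exceeded HFC by 0.815 ± 0.237 (SE, 95% interval 0.219 to 1.41, adjusted p = 1). Cox4i1, the common isoform of subunit 4, read 0.61 and 0.82 with fenofibrate, 0.12 and -0.16 with lovastatin and -0.09 on HFC array 1 (-0.12 put back). Cox5b read 0.40 and 0.49 with fenofibrate, 0.00 and -0.23 with lovastatin and -0.16 on HFC array 1. Cox7c read 0.43 and 0.72 with fenofibrate, -0.03 and -0.22 with lovastatin and -0.18 and 0.14 in HFC.

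Cox6c was the complex IV gene whose fenofibrate arrays were below all others, with -0.28 and 0.04 under fenofibrate, 0.16 and 0.33 under lovastatin and 0.59 on HFC array 1 (0.26 put back). Its difference of fenofibrate from HFC was -0.71 ± 0.345 (SE, adjusted p = 1).

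Complex IV has isoforms named for other tissues, and these did not share an order. Cox6b2, known from testis, had the largest difference of fenofibrate from HFC of any member as the ratios were read, with 1.15 and 1 under fenofibrate, -0.68 and 0.26 under lovastatin and 0.04 and -0.27 in HFC. Fenofibrate minus HFC was 1.19 ± 0.381 (SE, 95% interval 0.23 to 2.15, adjusted p = 1), or -0.96 with the fenofibrate signs turned, where Ndufab1 at -1.82 was further from 0. Cox6b1, the common paralog of Cox6b2, read 0.07 and 0.15 with fenofibrate, -0.22 and -0.02 with lovastatin and -0.10 on HFC array 1. Cox7a1, an isoform of heart and skeletal muscle, read 1.07 and 0.44 with fenofibrate, -0.15 and -0.02 with lovastatin and 0.16 on HFC array 1 (0.37 put back). The widely expressed Cox7a2 read 0.29 and 0.08 with fenofibrate, -0.21 and -0.13 with lovastatin and 0.00 and -0.03 in HFC. Cox7a2l, a paralog that takes part in supercomplex assembly, read 0.10 and 0.28 with fenofibrate, 0.08 and -0.02 with lovastatin and -0.05 and -0.07 in HFC.

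Cox8b, a muscle isoform of subunit 8, had the lowest dye-balanced estimate of the 86 genes, -0.476 ± 0.139 (SE, adjusted p = 0.298). It read -0.35 and -0.59 with fenofibrate, -1.16 and -0.49 with lovastatin and -0.05 and -0.23 in HFC, and both drug groups lay below both HFC arrays. Genes of striated muscle also lay below the pool. The 9 measured muscle markers had medians of -0.285 and -0.34 on the fenofibrate arrays, -0.6 and -0.365 on the lovastatin arrays and -0.46 and -0.375 on the HFC arrays, where the last covers 8 markers. Of the 9 markers, 8 had a dye-balanced estimate below 0, against 9501 of 19447 features, with 0 past the threshold. Among them Myh4, a myosin heavy chain of fast muscle, was at -0.741 (adjusted p = 0.0815), and the other muscle isoforms, Cox7a1 and Cox6a2, did not share the order of Cox8b. The part of muscle RNA in the Cox8b values was not tested. Ratios to a pool do not show whether a gene is expressed in these livers, so the markers cannot check the tissue itself.

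The common Cox8a read 0.31 and -0.16 with fenofibrate, 0.46 and 0.06 with lovastatin and 0.32 and 0.30 in HFC. Cox6a1, the liver isoform of subunit 6a, read 0.22 and 0.20 with fenofibrate, 0.07 and -0.11 with lovastatin and 0.16 and 0.56 in HFC, and the muscle isoform Cox6a2 read 0.09 and 0.07, -0.56 and -0.12, and -0.35 and 0.32 in the same order of groups. Cox4i2, the isoform of lung, read -0.17 and -0.16 with fenofibrate, -0.11 and -0.22 with lovastatin and 0.24 and 0.09 in HFC. Both drug groups were below both HFC arrays for Cox4i2. Cox7b2, a testis isoform, read -0.39 and 0.22 with fenofibrate, -0.86 and -0.10 with lovastatin and -0.10 on HFC array 1, and its put-back value of 1.45 lies far from that.

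Complex V makes ATP. In its catalytic head and stalk, Atp5c1, the rotating gamma subunit, read 0.44 and 0.42 with fenofibrate, -0.27 and -0.25 with lovastatin and -0.27 and -0.24 in HFC. The replicates of each group lay within 0.05 of each other, and fenofibrate exceeded HFC by 0.685 ± 0.229 (SE, 95% interval 0.108 to 1.26, adjusted p = 1). Atp5o, which joins the head to the outer stalk, read 0.64 and 0.62 with fenofibrate, 0.01 and -0.04 with lovastatin and -0.01 and -0.14 in HFC, a difference of fenofibrate from HFC of 0.705 ± 0.233 (SE, adjusted p = 1). Atp5a1 and Atp5b, also of the head, did not show differences of that size. Atp5a1 read 0.18 and 0.23 with fenofibrate, -0.19 and -0.14 with lovastatin and -0.16 on HFC array 1, and Atp5b read 0.23 and -0.15 with fenofibrate, 0.03 and 0.23 with lovastatin and 0.33 and 0.12 in HFC.

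Atp5e, the epsilon subunit of the central stalk, was highest on the HFC diet alone. It read 0.22 and 0.03 with fenofibrate, 0.17 and 0.27 with lovastatin and 0.86 and 0.54 in HFC, and the HFC arrays did not overlap either drug group. Fenofibrate minus HFC was -0.575 ± 0.257 (SE, adjusted p = 1) and lovastatin minus HFC -0.48 ± 0.257 (SE, adjusted p = 0.972). Atp5j, a stalk subunit, read -0.18 and 0.01 with fenofibrate, 0.10 and 0.06 with lovastatin and 0.29 and 0.22 in HFC, in which each group lay apart from the others.

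In the membrane part, Atp5mpl, a small proteolipid, had the highest dye-balanced estimate of the complex, 0.318 ± 0.12 (SE, adjusted p = 0.466), with 0.50 and 0.58 in fenofibrate mice, -0.10 and 0.00 in lovastatin mice and 0.24 on HFC array 1 (-0.02 put back). Subunit c of the rotor ring is encoded by 3 genes whose mature proteins are identical. Atp5g2 read 0.21 and 0.17 with fenofibrate, -0.04 and -0.11 with lovastatin and -0.06 and -0.01 in HFC. Atp5g1 read 0.21 and -0.05 with fenofibrate, -0.07 and 0.02 with lovastatin and 0.01 and -0.22 in HFC. Atp5g3 read 0.26 and 0.19 with fenofibrate, 0.22 and 0.30 with lovastatin and 0.13 and 0.37 in HFC. Of the 3, the fenofibrate arrays were apart from the others for Atp5g2 alone. The lowest estimates of the complex were those of Atp5h at -0.07 and Atp5j2 at 0.

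Between lovastatin and the HFC diet alone the genes differed less. Both lovastatin arrays lay below the HFC arrays for 34 of 86 members (39.5%, against 22.3% of features) and above them for 6 (6.98%, against 20.6%), and with the blocks put back for 27 (31.4%, against 17.3%) and 4 (4.65%, against 13.9%). The median difference was -0.0975, against -0.015 over all features, and 23 of 86 members had an estimate above 0 (26.7%, against 48.5%). At an unadjusted p under 0.05 there were 0 members in either direction, against 0.59% of features higher and 1.41% lower. Cox8b differed by -0.685 ± 0.32 (SE), or by -1.02 without lovastatin replicate 2. That setting keeps lovastatin array 1, the widest array, at -1.16 and drops lovastatin array 2, at -0.49. Apart from Cox8b and Atp5e, the largest non-overlapping difference below 0 was that of Ndufaf3, -0.445 ± 0.437 (SE, adjusted p = 0.972). Above 0 they were Ndufb7 at 0.31 ± 0.318, Ndufv3 at 0.195 ± 0.446 and Sdhd at 0.145 ± 0.323 (SE, adjusted p = 0.972, 0.981 and 0.979), each with HFC array 1 alone, and with the blocks put back Ndufv3 and Sdhd overlapped. Lovastatin array 2 and HFC array 1, which share the pool and the dye orientation, correlated at r = 0.734 over the 86 members. The replicate pairs were lower, at 0.366 for fenofibrate (0.596 over 85 members without Ndufa3), 0.421 for lovastatin and 0.525 for HFC over 50 members.

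On the HFC diet alone against the pool, 48 of 86 members were above 0 (55.8%, against 51.1% of features), with a median of 0.04 against 0.01 over all features. At an unadjusted p under 0.05 2 members were higher, Atp5e and Ndufab1 (2.33%, against 2.29%), and 0 lower (against 2.44%). With lovastatin 29 members were above 0 (33.7%, against 48.8%) with a median of -0.06 against -0.01 over all features, and at that threshold 2 were higher, Ndufab1 and Uqcrh (2.33%, against 4.62%), and 2 lower, Cox8b and Ndufs8 (2.33%, against 5.96%). The shares at that threshold are close to or below those of all features. Without lovastatin replicate 2, 2 members passed the adjusted threshold for lovastatin against the pool, Cox8b at -1.16 and Ndufa4l2 at 1.02 (adjusted p = 0.0267 and 0.0431), which is 2.33% of members against 21.1% of features. For fenofibrate against lovastatin Cox6b2 then passed at 1.755 (adjusted p = 0.0261), 1.16% of members against 11.8% of features.

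Genes that work with the chain were set beside it. Of 20 measured electron carriers, exchangers and uncouplers, 9 (45%) had both fenofibrate arrays above all others and 1 (5%) below, against 11.8% and 13% of all features. These 9 include Cyc1, cytochrome c1 of complex III, which the symbol rule did not take. Cyc1 read 0.51 and 0.94 with fenofibrate, -0.29 and -0.40 with lovastatin and -0.43 on HFC array 1. Cycs, cytochrome c, read 0.61 and 0.70 with fenofibrate, -0.385 and 0.01 with lovastatin and 0.095 and 0.27 in HFC. Etfdh, which feeds electrons from fatty acid oxidation into ubiquinone, read 0.72 and 0.77 with fenofibrate, 0.54 and 0.07 with lovastatin and 0.18 and 0.15 in HFC. Atpif1, the inhibitor of ATP synthase, was below the pool on every array, from -0.17 to -0.52. The count was 5 of 15 (33.3%) for the tricarboxylic acid cycle (3, or 20%, with the blocks put back), 9 of 32 (28.1%) for assembly factors, 13 of 75 (17.3%) for mitochondrial ribosomal proteins and 2 of 16 (12.5%) for regulators of mitochondrial genes, the last close to the 11.8% of all features. Those below all others were 0 of 15 for the cycle, 2 of 32 (6.25%) for assembly factors, 12 of 75 (16%) for mitochondrial ribosomal proteins and 2 of 16 (12.5%) for regulators, against 13% of all features. Pdha1, of the pyruvate dehydrogenase complex that feeds the cycle, read 0.39 and 0.51 with fenofibrate, 0.89 and 0.50 with lovastatin and 0.79 on HFC array 1, above the pool on all 5. Cox19, an assembly factor of complex IV, read 0.48 and 0.49 with fenofibrate, 0.56 and 0.29 with lovastatin and 0.26 and 0.41 in HFC. Mrps6, of the mitochondrial ribosome, had a dye-balanced estimate of 0.571 (adjusted p = 0.235). Among these lists 0 genes passed the adjusted threshold in any of the 7 comparisons.

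Among the regulators Ppargc1a, the coactivator PGC-1α, read -0.55 and -0.69 with fenofibrate, -0.47 and -0.98 with lovastatin and -0.28 on HFC array 1, with a dye-balanced estimate of -0.561 (adjusted p = 0.296). Of 13 measured PPARα targets of fatty acid oxidation, 10 (76.9%) had both fenofibrate arrays above all others, against 11.8% of all features. In the dye-balanced comparison, which pools the diet and both drugs, 3 were called higher, against 0.17% of features. These were Acot1 at 2.89, Cyp4a14 at 2.23 and Cyp4a10 at 1.29 (adjusted p = 0.0103, 0.025 and 0.0338). The members' differences were smaller, with a median of 0.135 for fenofibrate against the pool where the PPARα targets had 1.07.

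Cytosolic ribosomal proteins, a list added after the values were seen, ran opposite to the chain. Both fenofibrate arrays were below all others for 34 of 68 of these genes (50%, against 13% of all features) and above for 3 (4.41%, against 11.8%). Their median was 0.03 and 0.035 on the fenofibrate arrays, 0.36 and 0.265 on the lovastatin arrays and 0.31 and 0.155 on the HFC arrays, where the last covers 38 genes. For both sets of genes, fenofibrate and dye orientation cannot be told apart.

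**Figure D4:**
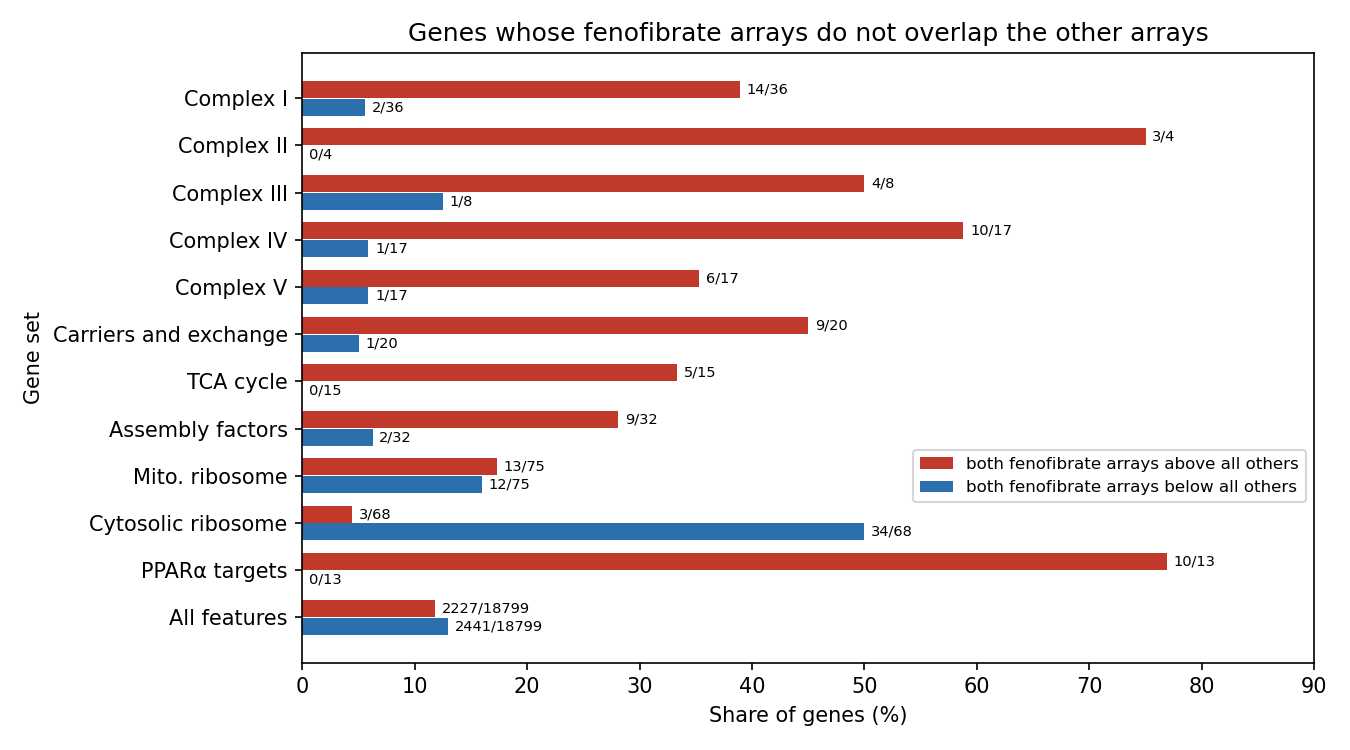
Bars give the share of genes of each set, in percent, whose fenofibrate arrays both lay above (red) or both below (blue) all lovastatin and HFC arrays, with the counts printed beside them. Complexes I to V range from 6 of 17 to 3 of 4 above, against 2227 of 18799 for all features, and the cytosolic ribosome has 34 of 68 below.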

How the data were processed

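Liver RNA of 6 mice was hybridised on 2-colour arrays against 1 pool of chow-fed mice, 0.5 µg per labelling, per the labels' protocols. The deposited table, made by the authors, holds 1 value per spot and array, read here as a log2 ratio of mouse to pool. How spots were scanned, background-corrected and normalized was not given in the sources used here. Intensities were not used and dim probes were kept, so precision rests on the number of arrays. Per the labels, replicates are different mice.

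Of 22575 spots, 726 without values and 561 repeated controls were dropped, leaving 21288 probes. The platform annotation names 1 gene for 18658 probes, several genes for 30 and none for 3887 spots. Probes of a gene were averaged (Atp5pb and Ndufs6 have 2), giving 19517 features. On HFC array 2, 50.3% of probes lie in the displaced blocks and were set to missing, so limma used HFC array 1 alone for 36 members.

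Group means were fitted with limma 3.58.1 in R 4.3.3 over all features and 3 groups, with a prior of 2.38 degrees of freedom. Tests against the pool leave out the spread between chow mice and hold any dye effect of a gene. The fit was tested on simulated data. Python 3.11.15, numpy 2.4.6, pandas 2.3.3 and matplotlib 3.10.9 prepared data and figures.

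Members, lists and motifs were chosen with earlier results of these data known. The rule for named genes took members past the threshold, the 2 highest and 2 lowest of each complex by dye-balanced estimate, up to 3 non-overlapping members in each direction for each drug against HFC, isoform sets, and up to 3 genes of smallest p of each other list. Ndufs8, Ndufs1, Ndufv1, Ndufs3, Ndufs4, Uqcr10, Cox5b, Cox7c, Atp5a1, Atp5b, Atp5c1, Atp5j and other names outside it were chosen after their values were seen. Alternatives were the displaced values as deposited or put back, median centring, quantile normalization, single probes, a robust prior, a replicate block, only the compared arrays, turned fenofibrate signs, no assembly factors, and each array left out.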

Additional observations from a re-analysis of the deposited data

How the results depend on the processing

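Under other settings, 292 summary values lay within the replicate spread or within 1.5 times the count, and 58 moved. Of the values of single genes, 518 stayed, 52 moved, 7 (all of Ndufab1) lost their call and 1, also of Ndufab1, reversed. With displaced values as deposited, the dye-balanced comparison called 67 features and 0 members, and 3 members had the fenofibrate arrays below all others. With the blocks put back it called 191 features, and 32 were called for fenofibrate, 2 for lovastatin and 5 for HFC against the pool. Quantile normalization called 196 features in the dye-balanced comparison, 4 for lovastatin and 9 for HFC against the pool. Median centring, single probes, a robust prior and the compared arrays alone each gave 0 features for fenofibrate against the pool, and the robust prior gave 0 members in the dye-balanced comparison. Without the assembly factors the members' median for fenofibrate against HFC was 0.16. The cause of these shifts was not tested.

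With fenofibrate signs turned, 0 features and 0 members were called in the dye-balanced comparison, 37 features for fenofibrate against HFC and 60 for fenofibrate against lovastatin. The members' median became -0.102 for the dye-balanced comparison, -0.135 for fenofibrate against the pool, -0.208 for fenofibrate against HFC and -0.12 for fenofibrate against lovastatin. The fenofibrate arrays were then above all others for 8 members (9.3%, against 15.2% of features) and below for 35 (40.7%, against 16.3%), and the Ndufab1 estimate was -0.311 (adjusted p = 0.902). The adjusted p of Ndufab1 ranged from 0.0252 to 0.902 over all settings, with 0.0616 as deposited and 0.0503 with the robust prior.

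Replicate numbers did not pair the arrays: deviations of same-numbered arrays from their group means correlated at -0.0241, -1e-04 and 0.0311. With the replicate block, 0 features and 0 members were called in the dye-balanced comparison (Ndufab1 adjusted p = 0.161), and 0 features for fenofibrate against the pool.

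With each array left out in turn, the features called ranged from 0 to 966 for the dye-balanced comparison, 0 to 26 for fenofibrate, 0 to 4016 for lovastatin and 0 to 6 for HFC against the pool. They ranged from 0 to 1401 for lovastatin against HFC and 0 to 2235 for fenofibrate against lovastatin. The highest counts above 26 came without lovastatin replicate 2, which leaves lovastatin array 1, with an SD of 1.09, to vary like the other groups. Members called ranged from 0 to 1 for the dye-balanced comparison, 0 to 2 for lovastatin against the pool and 0 to 1 for fenofibrate against lovastatin. The members' median ranged from 0.115 to 0.195 for fenofibrate against the pool and from 0.198 to 0.26 for fenofibrate against lovastatin. Members with the fenofibrate arrays above all others ranged from 21 of 50 (without HFC replicate 1) to 46 (53.5%, against 24.2% of features, without HFC fenofibrate replicate 1). Those below ranged from 2 of 50 (4%, against 12.9%, without HFC replicate 1) to 15 (17.4%, against 25.9%, without HFC fenofibrate replicate 1). A group of 1 array was assumed to vary like the others.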

Other observations

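Markers of liver and other cell types were read beside the chain, and 0 of them passed the adjusted threshold in any comparison. Of 9 measured hepatocyte markers, 8 had a dye-balanced estimate below 0, against 9501 of 19447 features. Their median was -0.66, and Ttr, transthyretin, was lowest in p at -0.983 (adjusted p = 0.0817). The hepatocyte medians were -0.62 and -0.9 on the fenofibrate arrays, -0.59 and -0.64 on the lovastatin arrays and -0.53 and -0.34 on the HFC arrays, where the last covers 7 markers. The 8 Kupffer cell and macrophage markers had medians of -0.335 and -0.435 with fenofibrate, 0.135 and 0.13 with lovastatin and -0.06 and 0 in HFC, lowest on the fenofibrate arrays. On HFC array 2 that median covers 5 of these markers. Dye-balanced medians were -0.161 for 9 lymphocyte, 0.02 for 6 endothelial, 0.04 for 7 stellate cell and fibroblast, 0.03 for 4 cholangiocyte, -0.125 for 3 erythroid and -0.185 for 5 brown fat markers.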
